A study of Mus musculus with 41 samples.

Results

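The glutathione S-transferase genes described here are Gstt1, Gstt2, Gstt3, Gstm1, Gstm2, Gstm5, Gsta4, Gstp1, Gsto1 and Mgst1, 10 genes of the 24028 gene symbols in the RNA-seq files. They were taken by symbol, and each stood on 1 row of every file. The set was built around Gstt2, which was picked because its FPKM was higher in TSa2i/L than in 2i/L, so the values of that contrast, its calls included, are a description of the 10 genes and no support for their difference. Expression was given as FPKM, the number of sequenced fragments scaled to transcript length and to the depth of the library, a level per length that allows genes to be compared with one another.

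RNA-seq was performed on 13 cultures of mouse androgenetic haploid ESCs (AG-haESCs), which carry a single set of chromosomes from sperm. All lines had the C57BL/6 background and were grown on ICR fibroblast feeders with LIF and the Gsk3 inhibitor CHIR99021 at 3 μM. The wild-type line 2i-14 was sampled in 2i/L at p18, p39 and p50 (p, passage). 2 further lines in 2i/L gave 1 library each. In 2i-O48 the H19-DMR and the IG-DMR are deleted, and 2i-O48-TKO lacks the gene H19 as well. 2i/L contains serum and the Mek inhibitor PD0325901 at 1 μM. The wild-type TSa2i/L cultures were p9 and p58 of TSa2i-C57 and p22, p47 and p54 of TSa2i-14. Wild type here means without a DMR deletion, since the authors list actin-EGFP beside the C57BL/6 background of TSa2i-14 and not of TSa2i-C57. TSa2i/L lines were derived with serum and the Src inhibitor CGP77675 at 1.5 μM and then kept in SF/a2i/L, a serum-free N2 and B27 medium with the same inhibitors. Each of the 3 lines in 2i/L was also moved into SF/a2i/L and sampled 5 passages later, and these 3 libraries are called switched. The 2i/L and SF/a2i/L cultures differ in 1 inhibitor, in serum and in base medium, and these cannot be told apart; between 2i/L and TSa2i/L the cell line differs too. Libraries of 1 line at several passages are not independent lines. By its name 2i-O48-TKO derives from 2i-O48, so these lines may not be independent either.

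FPKM does not state the depth. The smallest values implied 12700000 to 19800000 fragments per library, at which 3 fragments on a 1-kb transcript give 0.152 to 0.236 FPKM, a limit that covers counting error only. All 8 ES cell markers examined, such as Pou5f1 and Sox2, reached at least 10 FPKM in all 13 libraries. 1 of the 8, Nanog, was called lower in the switch comparison below, beside 4.66% of all genes (log2 change -0.93, adjusted p = 0.0483, limma). It went from 248 to 180 FPKM in 2i-14, from 467 to 195 FPKM in 2i-O48 and from 232 to 110 FPKM in 2i-O48-TKO. Nanog missed the threshold under median centring (adjusted p = 0.0588) and without the 2i-O48-TKO pair (adjusted p = 0.259, both limma). The 15 fibroblast genes examined averaged 0.164 to 0.326 on the log2(FPKM + 1) scale in 9 libraries and 0.618 in TSa2i-14 p22, but it reached 1.85 for 2i-14 p39, 2.452 for TSa2i-14 p54 and 1.396 for TSa2i-C57 p58. Those 3 libraries are called fibroblast-rich below. Summed over all genes, FPKM came to 2146932 for the switched 2i-14 culture and to between 651115 and 871848 elsewhere.

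Glutathione S-transferases join the tripeptide glutathione to electrophilic compounds, which makes them more soluble and marks them for export. The cytosolic enzymes fall into classes by sequence, among them theta (Gstt), mu (Gstm), alpha (Gsta), pi (Gstp) and omega (Gsto), while Mgst1 belongs to a separate family of membrane-bound enzymes. Several of these genes are known targets of NRF2, the transcription factor of the response to oxidants and electrophiles.

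Gstt2 lies on the minus strand at chr10:75294590-75297626 (NCBIM37, which is mm9), with 1 annotated transcript. The theta genes stand side by side there, with Gstt4 at chr10:75277688-75285288, Gstt1 at chr10:75246558-75261329 and Gstt3 at chr10:75236860-75244159, all transcribed in the same direction. The first 60 coding bases of the 3 theta members are shown from the GENCODE vM1 transcripts, since near-identical copies could exchange reads, with bases that differ from Gstt2 in capitals.
Gstt2: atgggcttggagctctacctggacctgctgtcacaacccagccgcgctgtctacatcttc
Gstt1: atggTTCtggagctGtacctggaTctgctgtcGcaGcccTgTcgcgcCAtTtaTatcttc
Gstt3: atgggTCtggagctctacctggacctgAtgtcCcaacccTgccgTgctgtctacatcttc
In this stretch Gstt1 differed from Gstt2 at 13 bases and Gstt3 at 6. Over whole transcripts, none of the 50-base windows of Gstt2 or Gstt1 occurred exactly in a transcript of another protein-coding gene. Near matches and sequence outside protein-coding transcripts were not searched. For Gstt3, 26.0% of windows also occurred in another protein-coding gene, most often in RP23-333M15.8, an annotated gene that overlaps it. Gstp1 shared 67.5% of its windows with other genes, Gstm1 14.8% and Gstm2 5.62%, and their values are less certain for that reason. The gene sharing most was Gstp2 for Gstp1, Gstm3 for Gstm1 and Gm6665 for Gstm2. The other 4 members shared none.

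The RefSeq promoter table (GRCm38.p6) held 8 of the 10 members and not Gstt2 or Gsta4. The 250 bases before the start are shown for the other theta members, for Gsto1, which fell after the switch, and for Gstp1, a highly expressed member. CpG dinucleotides, the sites of DNA methylation in these cells, are in capitals. The order is Gstt3 (chr10:75781423-75781672, minus strand), Gstt1 (chr10:75797732-75797981, minus strand), Gsto1 (chr19:47854723-47854972, plus strand) and Gstp1 (chr19:4037913-4038162, minus strand).
Gstt3: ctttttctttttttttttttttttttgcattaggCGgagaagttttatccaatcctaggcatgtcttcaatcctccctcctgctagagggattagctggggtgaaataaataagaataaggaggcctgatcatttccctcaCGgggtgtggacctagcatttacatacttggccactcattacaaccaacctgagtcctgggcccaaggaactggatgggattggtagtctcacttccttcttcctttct
Gstt1: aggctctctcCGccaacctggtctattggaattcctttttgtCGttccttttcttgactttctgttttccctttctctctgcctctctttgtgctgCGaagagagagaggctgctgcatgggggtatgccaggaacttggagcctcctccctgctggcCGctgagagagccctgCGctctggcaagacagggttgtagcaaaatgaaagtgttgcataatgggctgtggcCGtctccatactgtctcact
Gsto1: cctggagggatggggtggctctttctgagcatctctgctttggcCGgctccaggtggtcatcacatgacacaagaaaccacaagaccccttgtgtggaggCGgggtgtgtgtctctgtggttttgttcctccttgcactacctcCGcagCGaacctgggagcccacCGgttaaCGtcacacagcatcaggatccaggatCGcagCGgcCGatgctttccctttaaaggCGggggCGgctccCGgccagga
Gstp1: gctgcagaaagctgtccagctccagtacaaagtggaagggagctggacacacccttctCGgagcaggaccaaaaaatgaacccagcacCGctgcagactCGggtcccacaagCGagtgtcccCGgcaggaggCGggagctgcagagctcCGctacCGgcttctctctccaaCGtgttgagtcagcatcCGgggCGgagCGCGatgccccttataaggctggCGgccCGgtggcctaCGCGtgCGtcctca
The Gstt3 window held 2 CpGs, Gstt1 6, Gsto1 12 and Gstp1 18, against a median of 6 over the 27025 promoters of the table. The motif TGACNNNGC, the core bound by NRF2 with its partner, was searched on both strands and occurred in Gstm5 and Mgst1 and in 10.1% of all promoters. TGAGTCA, the AP-1 motif, occurred in Gstm5 and Gstp1 and in 4.43% of all promoters, and TATAAA occurred in none of the 8 members and in 13% of all promoters. On the opposite strand TGAGTCA reads TGACTCA, and only TGACTCA followed directly by GC holds both motifs. The Gstp1 window has TGAGTCA followed by GC, which is not TGACNNNGC, and it held no match to that motif on either strand. None of these 3 motifs was in the Gstt1, Gstt3 or Gsto1 windows.

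Whether the higher Gstt2 level of TSa2i/L is shared by the family was read first from the levels. Gstt2, a theta-class enzyme, stood at 5.82 FPKM in 2i-14 p18, at 3.15 in p39 and at 4.33 in p50. In TSa2i/L it stood at 24.5, 86.7 and 47.9 FPKM in TSa2i-14 p22, p47 and p54 and at 78.9 and 61.3 FPKM in TSa2i-C57 p9 and p58. The means were 4.43 ± 1.34 (SD, n = 3) and 59.9 ± 24.9 FPKM (SD, n = 5), a ratio of 13.5. The fitted log2 change was 3.39. Among all 24028 symbols Gstt2 ranked 5320th to 7260th by FPKM in the 5 libraries of 2i/L and 1330th to 3259th in the 8 libraries of SF/a2i/L.

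The 2 other theta members were also higher in TSa2i/L. Gstt1, which acts on small halogenated compounds, was at 0.811 FPKM in 2i-14 p18, 0.846 in p39 and 1.63 in p50. In TSa2i/L it was 2.73, 9.76 and 8.73 FPKM in TSa2i-14 p22, p47 and p54 and 2.61 and 5.89 FPKM in TSa2i-C57 p9 and p58. Gstt1 was under 1 FPKM in 2i-14 p18 and p39, so it passed the filter mainly through TSa2i/L. Gstt3 was 1.72, 2.48 and 1.82 FPKM in 2i-14 and 6.08, 7.91, 5.6, 5.07 and 11.02 FPKM in TSa2i/L, in the same order. The fitted log2 changes were 1.61 for Gstt1 and 1.4 for Gstt3, smaller than that of Gstt2. Summed over Gstt1 to Gstt4, Gstt2 made up 42.5 to 69.7% of the theta-class FPKM in 2i/L and 73.6 to 91.1% in SF/a2i/L.

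**Figure D1:**
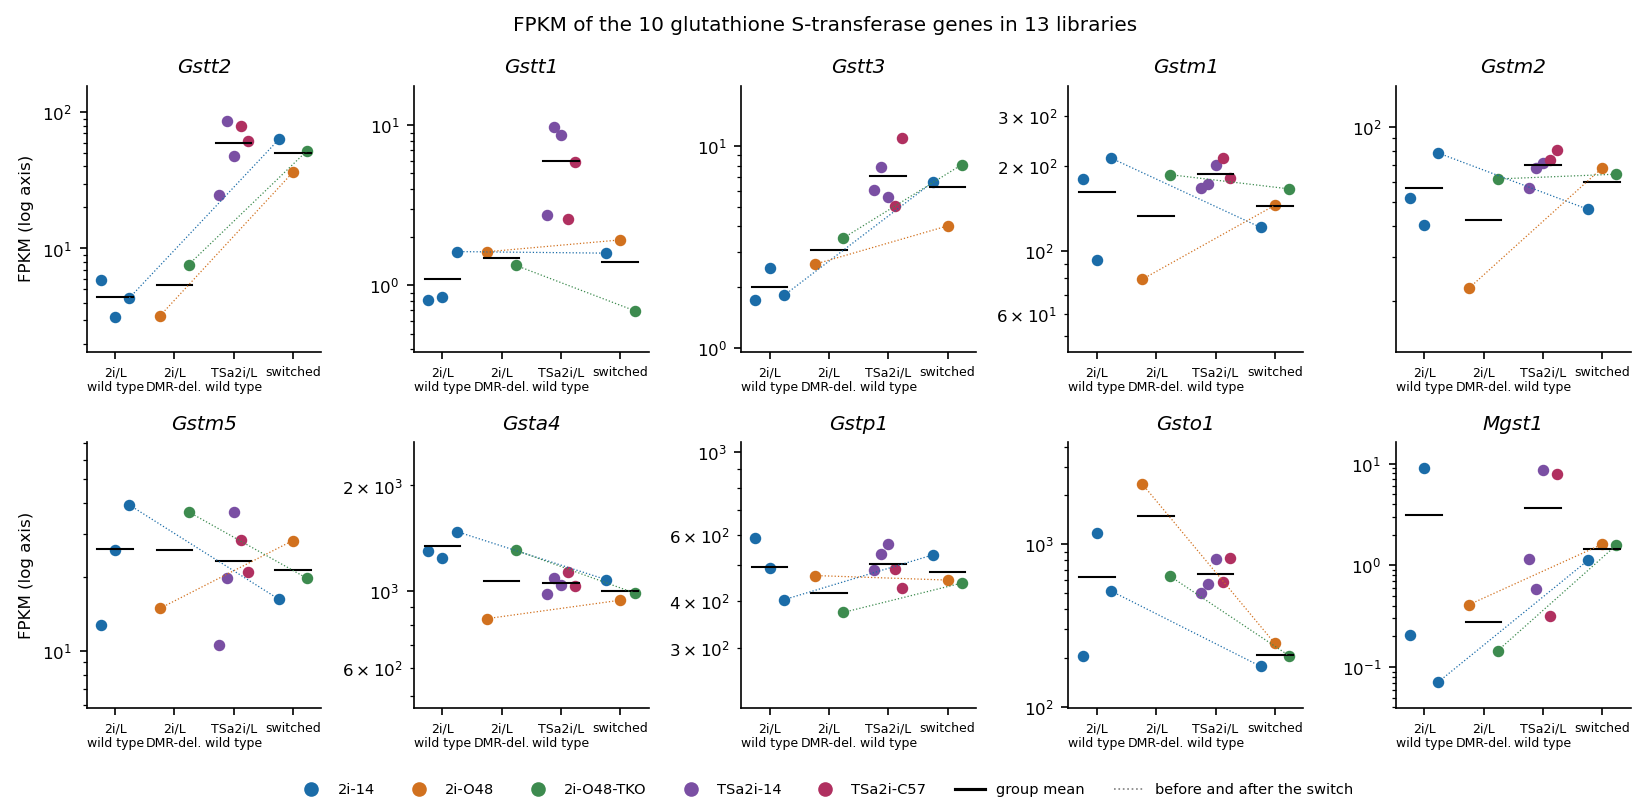
FPKM of the 10 members (log axes) in the 13 libraries, grouped by medium and genotype; points are libraries coloured by cell line, black bars are group means and dotted lines join a line before and after the switch (2i-14 p50 for the wild type). Gstt2 lies between 3.15 and 7.60 FPKM in 2i/L and between 24.5 and 86.7 FPKM in the other 2 groups, Gstt1 is at 2.61 to 9.76 FPKM in TSa2i/L and 0.695 to 1.92 FPKM in the switched cultures, and Gsto1 is at 177 to 245 FPKM in the switched cultures.

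By the fit over 10387 genes at an adjusted p of 0.05 (limma, Benjamini-Hochberg), 7.57% of all genes were called in this contrast, 5.72% higher and 1.85% lower in TSa2i/L. The 3 theta members were among the genes called higher and the 7 members of other classes were not called. Nothing was read from this count, since Gstt2 was chosen on this contrast and Gstt1 passed the filter mainly through TSa2i/L. The median log2 change of the members was 0.36 and that of all genes 0.07. Without the 3 fibroblast-rich libraries the log2 changes were 3.23 for Gstt2, 1.39 for Gstt3 and 1.27 for Gstt1. Centring each library on its median moved the median log2 change of all genes by -0.12 here and by 0.17 in the switch comparison below, and the split of all calls went from 594 higher and 192 lower to 359 and 280.

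The most abundant members belong to other classes. Gsta4, which removes the lipid peroxidation product 4-hydroxynonenal, was the highest in 12 of 13 libraries, at 1303, 1243 and 1477 FPKM in 2i-14 and 977, 1085, 1039, 1129 and 1033 FPKM in TSa2i/L. Its log2 change was -0.35. In 2i-O48 Gsta4 was lower still, at 833 FPKM, and there Gsto1 was the highest member. Gstp1, the pi-class enzyme, was 591, 489 and 403 FPKM in 2i-14 and 433 to 567 FPKM with a median of 487 in TSa2i/L. These ranges overlapped, and the log2 change of 0.03 turned to -0.09 under median centring. Gsta4, Gstp1 and Gsto1 together made up 70.6 to 91.4% of the summed FPKM of 28 listed family genes, whereas Gstt2 made up 0.0801 to 0.27% of it in 2i/L and 0.965 to 2.97% in SF/a2i/L.

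The levels of the mu-class members overlapped between the media. Gstm1 was 179, 93.1 and 213 FPKM in 2i-14, and in TSa2i/L it was 167, 172 and 202 FPKM in TSa2i-14 and 213 and 182 FPKM in TSa2i-C57, all inside the 2i-14 range. Gstm2 was 51.8, 40.3 and 78.4 FPKM in 2i-14 and 56.9 to 80.9 FPKM with a median of 71.6 in TSa2i/L. Gstm5 was 12.8, 25.6 and 39.3 FPKM in 2i-14 and 10.6 to 36.9 FPKM with a median of 20.9 in TSa2i/L. The log2 changes were 0.29, 0.34 and -0.12. Gstm1 was -0.10 without the fibroblast-rich libraries, and Gstm5 turned to 0.23 without 2i-14 p50.

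The switched cultures test the medium within a line. Each switched library was compared with its own line in 2i/L, and the cell line was a block. The wild type was set against its p50 library, which was a choice. The labels give no passage for the switched cultures or the DMR-deleted lines, so the passage at which a line was moved is not known. Of 9759 genes 6.89% were called, 2.22% higher and 4.66% lower after the switch. Median centring changed the split from 217 higher and 455 lower to 386 and 314, and without the filter on low FPKM no gene at all was called. 2i-14 p50 also served in the TSa2i/L contrast, while the pairs of 2i-O48 and 2i-O48-TKO share no library with it.

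Gstt2 rose in all 3 lines. It went from 4.33 to 63.1 FPKM in 2i-14, from 3.21 to 36.3 FPKM in 2i-O48 and from 7.60 to 52.4 FPKM in 2i-O48-TKO. All 3 switched values were inside the range of the TSa2i/L libraries and above every 2i/L library. The mean of the switched cultures was 50.6 ± 13.5 FPKM (SD, n = 3). The log2 change was 3.12 (SE 0.24, 95% interval 2.54 to 3.71, adjusted p = 0.00428, limma). In the 2 DMR-deleted lines alone, whose libraries are not part of the TSa2i/L contrast, it was 2.89 (adjusted p = 2.71e-05, limma). There the spread rests largely on the other genes because only 2 pairs remain. By its name 2i-O48-TKO derives from 2i-O48, so these 2 pairs may not be independent. With all 3 pairs and no filter on low FPKM the adjusted p was 0.143 (limma) at a log2 change of 3.12. Over the other alternatives the adjusted p ran up to 0.00509 (limma).

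The other theta members did not both follow. Gstt3 went from 1.82 to 6.65 FPKM in 2i-14, from 2.59 to 4.02 FPKM in 2i-O48 and from 3.495 to 8.09 FPKM in 2i-O48-TKO. It was higher in 3 of 3 lines, but the change of 0.98 (SE 0.25) missed the threshold (adjusted p = 0.0671, limma). It passed under median centring (adjusted p = 0.0371), quantile normalization (adjusted p = 0.0396) and with any other choice of 2i-14 control, and without the 2i-O48 pair (adjusted p = 0.012, all limma). Gstt1 went from 1.63 to 1.59 FPKM in 2i-14, from 1.62 to 1.92 FPKM in 2i-O48 and from 1.33 to 0.695 FPKM in 2i-O48-TKO. Its change was -0.11 (95% interval -0.59 to 0.37, adjusted p = 0.772, limma), and it turned to 0.06 under median centring. The 3 switched values of Gstt1 were all below the lowest TSa2i/L value of 2.61 FPKM; the difference between the switched and the TSa2i/L cultures was not tested.

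**Figure D2:**
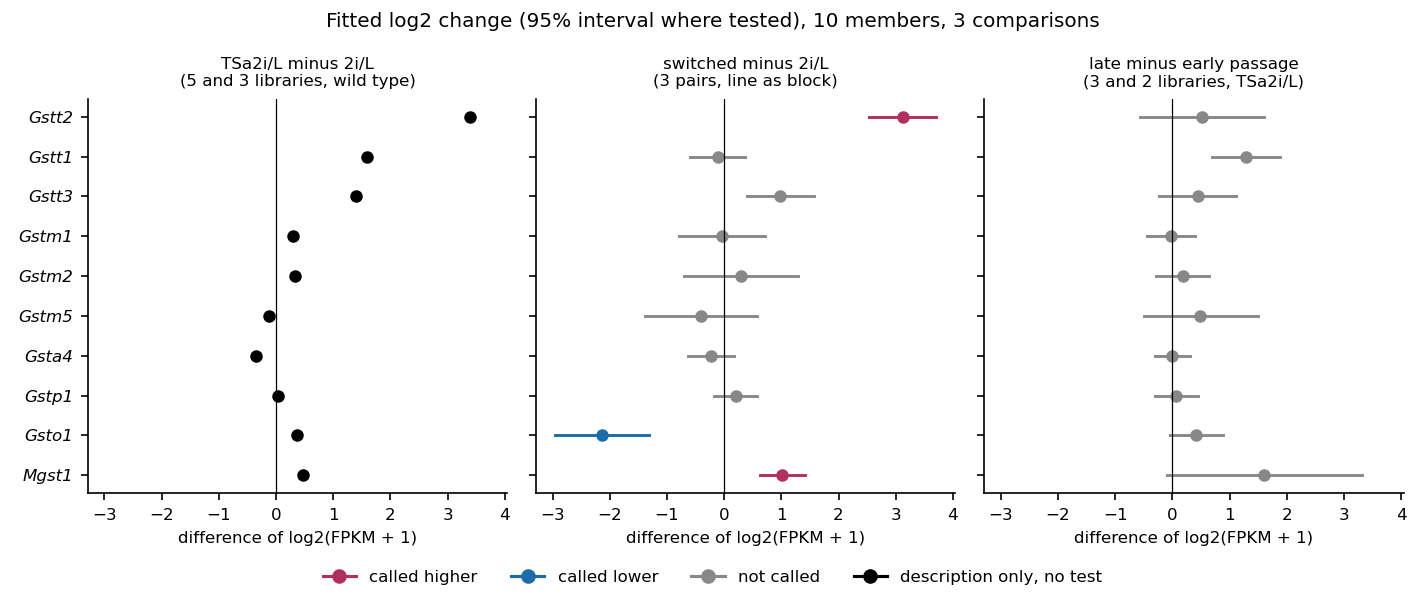
Fitted log2 change of the 10 members on the log2(FPKM + 1) scale in the 3 comparisons, with 95% intervals and calls for the switch and passage comparisons and points alone for the contrast that chose Gstt2. Gstt2 is at 3.39 and 3.12 in the first and second panels, whereas Gstt1 is at 1.61 and -0.11 and Gsto1 at 0.37 and -2.14.

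Gsto1, an omega-class enzyme that reduces dehydroascorbate, fell after the switch. It went from 516 to 177 FPKM in 2i-14, from 2363 to 245 FPKM in 2i-O48 and from 634 to 206 FPKM in 2i-O48-TKO, a log2 change of -2.14 (SE 0.34, adjusted p = 0.0232, limma). Its 2i/L level was uneven, with 205 FPKM in 2i-14 p18, 1178 in p39 and 516 in p50. The switched cultures stood at 177 to 245 FPKM, a range that contains 2i-14 p18. With 2i-14 p18 as the control the change was -1.69 and missed the threshold (adjusted p = 0.0643, limma). In TSa2i/L Gsto1 was not low, at 500, 567 and 810 FPKM in TSa2i-14 and 586 and 825 FPKM in TSa2i-C57, all above the switched cultures. The TSa2i/L contrast gave 0.37 for Gsto1, but -0.28 without 2i-14 p18 and -0.15 with both DMR-deleted lines added to 2i/L.

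Mgst1, the membrane-bound member, went from 0.0715 to 1.12 FPKM in 2i-14, from 0.412 to 1.61 FPKM in 2i-O48 and from 0.145 to 1.58 FPKM in 2i-O48-TKO. The change was 1.01 (SE 0.16, adjusted p = 0.0237, limma) on the log2(FPKM + 1) scale, which understates changes this low. Mgst1 was under 1 FPKM in all 3 controls and so passed the filter only through the switched libraries, which means it had to differ to be tested. The level in 2i-14 p50 is under what 3 fragments give. Mgst1 was 9.01 FPKM in 2i-14 p39, and with p39 as the control the change was -0.06 (adjusted p = 0.954, limma).

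Mgst1 moved with the fibroblast genes in the wild-type libraries. Its highest values, 9.01 FPKM (2i-14 p39), 8.61 FPKM (TSa2i-14 p54) and 7.84 FPKM (TSa2i-C57 p58), were those of the 3 fibroblast-rich libraries, where the 15 fibroblast genes summed to 66.8, 146 and 45.3 FPKM and at most 1 of the 15 was at 0. In the other 10 libraries that sum was 1.97 to 11.4 FPKM and Mgst1 0.0715 to 1.61 FPKM. The switched cultures had sums of 3.04 to 3.84 FPKM, against 1.97 to 3.01 FPKM in their controls, with 0 to 3 of the 15 genes at 0 against 5 to 8 in the controls. The lines were kept haploid by sorting for the 1C DNA peak, and whether cells were sorted again before RNA-seq is not given in the sources used here. The part of fibroblast RNA in the Mgst1 values was not tested, and in bulk RNA fewer cells of a type and less RNA per cell cannot be told apart. In the fibroblast-rich libraries Gstt2 was 3.15 FPKM (2i-14 p39, the lowest of all 13), 47.9 FPKM (TSa2i-14 p54) and 61.3 FPKM (TSa2i-C57 p58). The source of these differences was not tested.

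**Figure D3:**
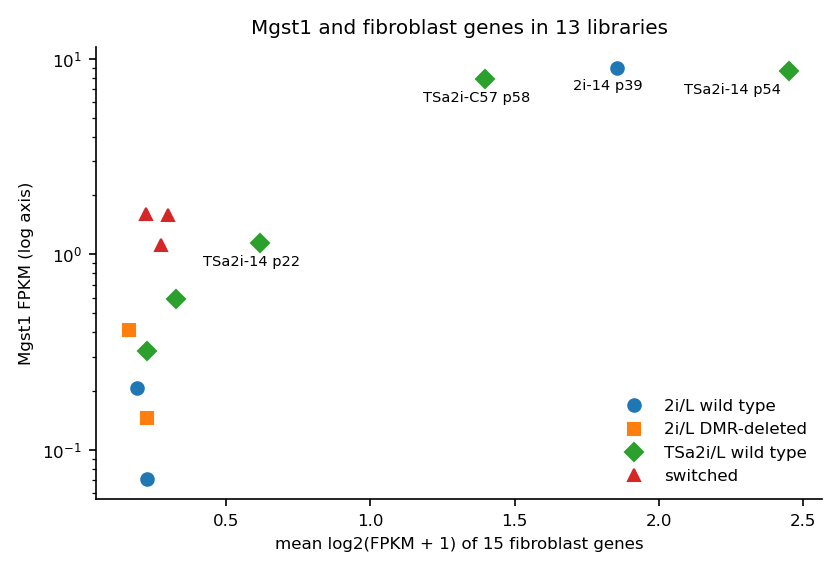
Mgst1 FPKM (log axis) against the mean log2(FPKM + 1) of 15 fibroblast genes in the 13 libraries, with symbols for medium and genotype. The 3 fibroblast-rich libraries lie at 7.84 to 9.01 FPKM, and the 3 switched cultures at 1.12 to 1.61 FPKM with fibroblast means of 0.222 to 0.299.

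Of the remaining members none was called after the switch. Gsta4 went from 1477 to 1076 FPKM in 2i-14, from 833 to 940 FPKM in 2i-O48 and from 1305 to 985 FPKM in 2i-O48-TKO, a change of -0.23 (95% interval -0.63 to 0.18, adjusted p = 0.434, limma). Gstp1 went from 403 to 532, from 468 to 455 and from 373 to 446 FPKM in the same order of lines, a change of 0.21 (95% interval -0.17 to 0.58, adjusted p = 0.446, limma). The 3 mu-class genes were lower in switched 2i-14 and higher in switched 2i-O48. Gstm1 went from 213 to 121 FPKM in 2i-14, from 79.3 to 145 FPKM in 2i-O48 and from 186 to 166 FPKM in 2i-O48-TKO. Gstm2 went from 78.4 to 46.7, from 22.6 to 68.4 and from 61.8 to 64.5 FPKM, and Gstm5 from 39.3 to 16.2, from 14.9 to 28.2 and from 36.8 to 19.7 FPKM. Their changes were -0.04, 0.29 and -0.41, each with an interval that spans 0, and that of Gstm1 turned to 0.13 under median centring. After the switch 2 of 10 members, Gstt2 and Mgst1, were called higher, beside 2.22% of all genes, and 1, Gsto1, was called lower, beside 4.66%. The call of Mgst1 adds nothing to that count, since it was tested only because its switched libraries were above 1 FPKM. The median change of the 10 was 0.09 beside -0.09 for all genes. Without the 2i-O48 pair Gstt3 joined the higher and Gstm5 the lower calls, and without the 2i-O48-TKO pair Mgst1 missed the threshold.

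Late and early passages were then compared within TSa2i/L. Of 10502 genes 0% were called in either direction by limma, although 928 had an unadjusted p under 0.05, and the smallest adjusted p was 0.443. Gstt1 was 9.76, 8.73 and 5.89 FPKM in TSa2i-14 p47, p54 and TSa2i-C57 p58 and 2.73 and 2.61 FPKM in the early TSa2i-14 p22 and TSa2i-C57 p9. The change was 1.29 (SE 0.25, adjusted p = 0.53, limma), and Gstt1 was not called. The highest value came from TSa2i-14 p47, which is not fibroblast-rich (fibroblast mean 0.326), whereas the other 2 late libraries are. The cause of this difference was not tested. Gstt2 gave 0.51 (95% interval -0.57 to 1.60, adjusted p = 0.736, limma), and -0.31 without TSa2i-14 p22. Gstt3 gave 0.44, Gsto1 0.42 and Mgst1 1.61. Gstm1 gave -0.03, Gstm2 0.18, Gstm5 0.49, Gsta4 0.00 and Gstp1 0.07, and each of these 5 took the other sign under another scaling or without a library. Mgst1 was at 8.61 and 7.84 FPKM in the 2 fibroblast-rich late libraries and at 0.59 FPKM in the other, against 1.14 and 0.32 FPKM in the early ones. The median of the 10 members was 0.43 beside 0.09 for all genes.

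The family was then read on a wider list of 28 glutathione S-transferases and related enzymes. In the TSa2i/L contrast 7 of the 23 genes tested were called higher and 0 lower, beside 5.72% and 1.85% of all genes. The 7 include Gstt2, which this contrast chose, and Gstt1, which passed the filter mainly through TSa2i/L, so the count is a description and nothing was read from it. Besides the 3 theta genes these were the mu-class Gstm4 (9.83 ± 1.66 FPKM, n = 3, in 2i/L and 19.5 ± 1.74 FPKM, n = 5, in TSa2i/L, SD) and Gstm7 (2.06 ± 0.329 and 6.66 ± 3.00 FPKM), the membrane-bound Mgst3 (42.9 ± 15.2 and 80.9 ± 21.5 FPKM) and Gstz1 (11.9 ± 0.843 and 30.2 ± 3.18 FPKM), a zeta-class enzyme of tyrosine breakdown. The list had a median log2 change of 0.45 beside 0.07 for all genes, and 19 of 23 values were positive. Gstt4, next to Gstt2 in the genome, was at 0 to 0.26 FPKM in all libraries.

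After the switch 3 of 22 tested family genes were called higher and 3 lower, beside 2.22% and 4.66% of all genes. Of the 3 higher, Gstt2 is the gene the set was built around, and Mgst1 was tested only through its switched libraries. Mgst3 rose from 60.2 to 148 FPKM in 2i-14, from 33.4 to 91.2 FPKM in 2i-O48 and from 36.2 to 126 FPKM in 2i-O48-TKO, a change of 1.49 (SE 0.19, adjusted p = 0.0126, limma), which missed the threshold without the 2i-O48-TKO pair (adjusted p = 0.0671). Ptges, the inducible prostaglandin E synthase, fell from 8.33 to 2.35, from 23.97 to 3.17 and from 7.69 to 2.03 FPKM in the same order, a change of -1.86 (adjusted p = 0.0201, limma). Gsta2, another alpha-class gene, was 3.75, 3.27 and 3.83 FPKM before and 0.162, 0.843 and 0.182 FPKM after the switch (change -1.76, adjusted p = 0.014, limma). Gsta2 passed the filter only through 2i/L, so its call adds nothing to the count of 3 lower. It shared 65.4% of its windows with other genes, most often with Gsta1, and stood at 0.30 FPKM in 2i-14 p18. Gstz1 was higher in 3 of 3 lines (change 0.99, adjusted p = 0.088), and Gstm4 (0.46, adjusted p = 0.251) and Gstm7 (0.16, adjusted p = 0.767, all limma) were not called. The list median was 0.22 beside -0.09 for all genes.

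**Figure D4:**
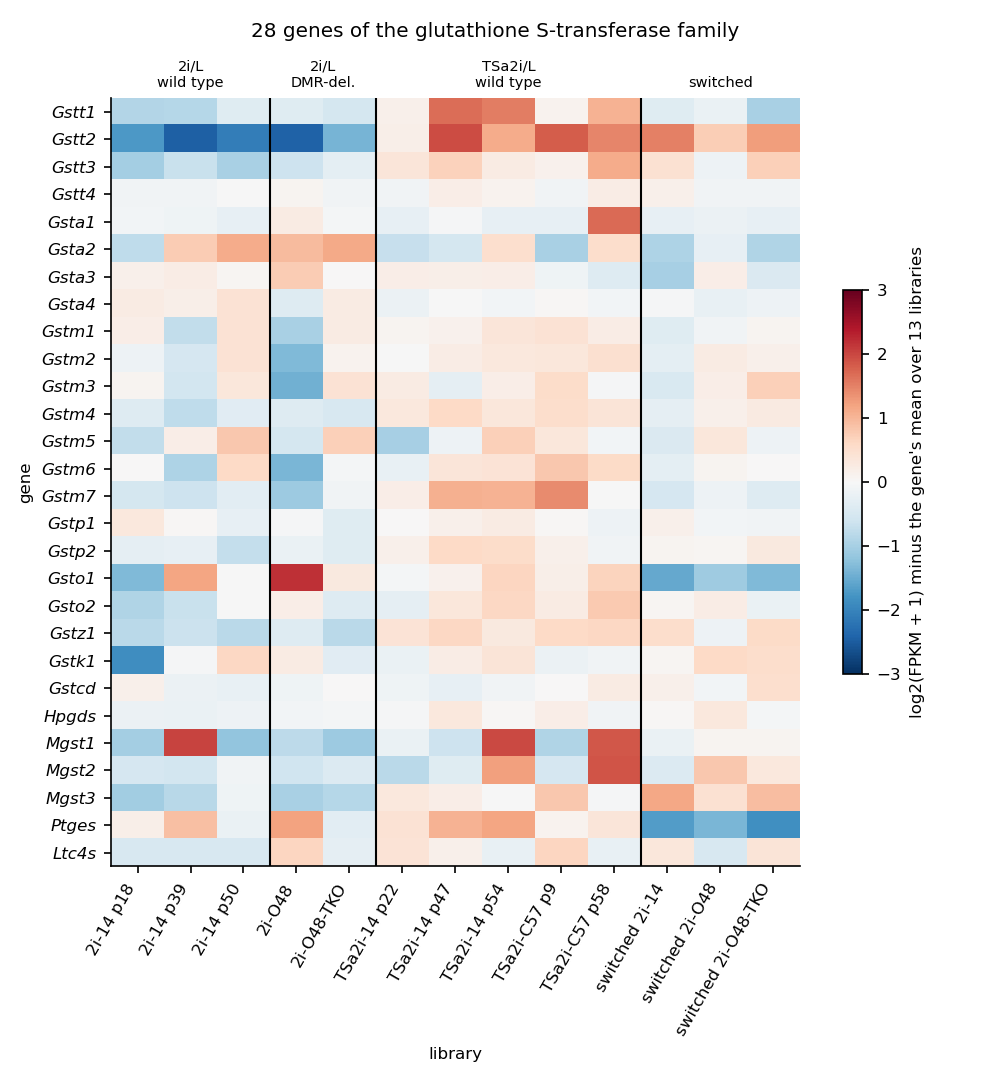
log2(FPKM + 1) of 28 family genes (rows) in 13 libraries (columns, grouped by medium and genotype), each relative to the mean of the gene over the 13 libraries. Gstt2 is below its mean in all 5 libraries of 2i/L and above it in the other 8, Gsto1 and Ptges are low in the switched columns, and Mgst1 is high in the fibroblast-rich libraries.

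The nearest genes on each side of Gstt2 were compared to see whether the locus moved as a block. Upstream of its start, Mif, which encodes macrophage migration inhibitory factor, was 573, 527 and 700 FPKM in 2i-14 and 496 to 786 FPKM in TSa2i/L. Its log2 changes were 0.13 in the TSa2i/L contrast and 0.22 after the switch (adjusted p = 0.603, limma). Derl3, a component of protein degradation at the endoplasmic reticulum, was 3.58, 1.65 and 2.14 FPKM in 2i-14 and 5.39 to 8.71 FPKM in TSa2i/L (log2 change 1.31), and was called higher there. It gave 0.29 after the switch (adjusted p = 0.394, limma). Smarcb1, a subunit of the SWI/SNF remodelling complex, gave 0.18 and -0.54 (adjusted p = 0.271, limma). Of Gstt2 and its 3 nearest genes on each side, 6 had a value after the switch and Gstt2 alone was called, beside 6.89% of all genes. Ddt, a D-dopachrome tautomerase gene of the Mif family, lies just beyond Gstt3, with its start 61.5 kb from that of Gstt2 against 86.7 kb for Smarcb1, and was named after its values were seen. It was called higher after the switch, going from 296 to 471 FPKM in 2i-14, from 261 to 492 FPKM in 2i-O48 and from 369.7 to 572 FPKM in 2i-O48-TKO (change 0.74, SE 0.15, adjusted p = 0.0409, limma). Ddt missed the threshold without the 2i-O48-TKO pair (adjusted p = 0.242), without the filter on low FPKM (adjusted p = 0.153) and without the trend (adjusted p = 0.0693, all limma). In the TSa2i/L contrast Ddt gave 0.49 and was not called. The annotated gene RP23-333M15.8 overlaps Ddt as well as Gstt3.

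**Figure D5:**
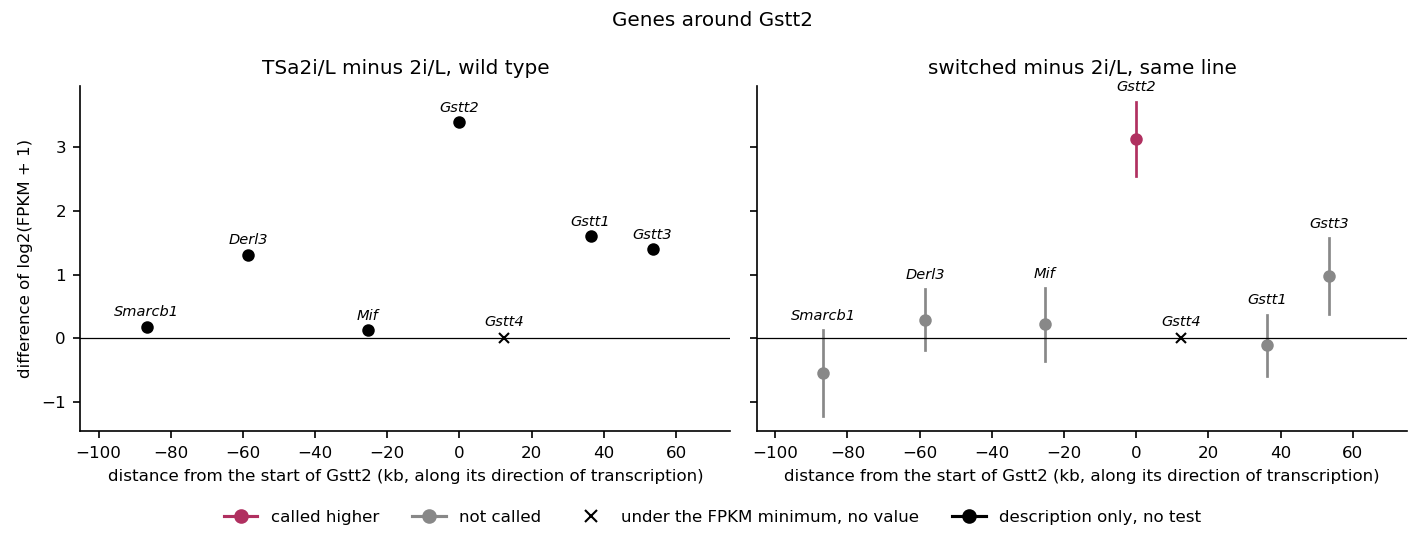
Log2 change of Gstt2 and the 3 nearest protein-coding genes on each side, by distance of their starts from that of Gstt2 in kb along its direction of transcription; lines are 95% intervals in the switch comparison. After the switch Gstt2 is at 3.12 and the 5 neighbours with a value lie between -0.54 and 0.98.

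Across the 13 libraries the genes with the pattern most like Gstt2 were outside the family. By Pearson's r on log2(FPKM + 1) among 10730 genes, they were Tmem205 (0.964), Fuom, a fucose mutarotase (0.962), C8g, a complement subunit (0.960), Klf3, a transcription factor (0.960) and Mpv17l2, a mitochondrial protein (0.959). These libraries share media, lines and feeder content, so r describes the pattern only. Tmem205 stood at 18.2 to 40.2 FPKM in the 5 libraries of 2i/L and at 82.6 to 147 FPKM in the other 8. Of the members Gstt3 was the closest, with r = 0.874 at rank 101, followed by Gstt1 with 0.583 at rank 1354 and Gstm2 with 0.559 at rank 1488. Gsto1 had r = -0.387 and Gsta4 -0.370. Between members, the closest pair was Gstm1 and Gstm2 (r = 0.898).

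The genes that supply and use glutathione were read from lists. Of 13 tested genes of glutathione synthesis and recycling, 5 were called higher and 1 lower in TSa2i/L, beside 5.72% and 1.85% of all genes, with a list median of 0.61 beside 0.07. The higher ones were Chac1, which degrades glutathione (6.58 ± 1.09 FPKM, n = 3, in 2i/L and 46.9 ± 32.6 FPKM, n = 5, in TSa2i/L, SD), Cth, which makes cysteine (177 ± 30.7 and 366 ± 34.2 FPKM), and the amino acid transporter genes Slc3a2 (125 ± 7.84 and 270 ± 27.6 FPKM), Slc1a4 and Slc1a5. The lower one was Gss, glutathione synthetase, at 48.1 ± 6.09 and 27.9 ± 5.36 FPKM. After the switch Gss alone was called, lower in 3 of 3 lines, from 54.9 to 6.63 FPKM in 2i-14, from 40.7 to 10.2 FPKM in 2i-O48 and from 51.9 to 10.8 FPKM in 2i-O48-TKO (change -2.31, SE 0.25, adjusted p = 0.0099, limma). That is 1 of 13 lower, beside 4.66% of all genes, and the list median was -0.05 beside -0.09. Cth (1.02, adjusted p = 0.0513) and Slc3a2 (0.85, adjusted p = 0.0517, both limma) narrowly missed the threshold.

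Of 23 genes of peroxide and thiol reduction, Prdx6, a peroxiredoxin that uses glutathione, was the only one called in TSa2i/L, where 1.85% of all genes were called lower, at 150 ± 27.5 FPKM (SD, n = 5) against 574 ± 106 FPKM (SD, n = 3). After the switch Prdx6 (change -2.55, adjusted p = 0.00523), Cat, which encodes catalase (-1.17, adjusted p = 0.0201), and Glrx, glutaredoxin (-4.42, adjusted p = 0.0126, all limma), were called lower and none higher, beside 4.66% and 2.22% of all genes. Glrx went from 53.8 to 3.48 FPKM in 2i-14, from 178 to 1.297 FPKM in 2i-O48 and from 95.2 to 8.39 FPKM in 2i-O48-TKO. Cat missed the threshold without the 2i-O48-TKO pair (adjusted p = 0.156). The list medians were -0.075 in TSa2i/L, beside 0.07 for all genes, and -0.10 after the switch, beside -0.09.

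Of 25 NRF2 target genes tested, 0 were called in TSa2i/L, where 7.57% of all genes were called, and the list median was 0.03 beside 0.07. After the switch 1 of 25 was called higher and 3 lower, beside 2.22% and 4.66% of all genes. The list median was -0.31 beside -0.09 for all genes, and 4 of 25 values were positive. The lower ones were Gsta2 (above), Nqo1, a quinone reductase (change -1.01, adjusted p = 0.0306), and Tkt, transketolase (-0.91, adjusted p = 0.0416), and the higher one was Ftl1, the ferritin light chain (0.65, adjusted p = 0.0365, all limma). Gsta2 passed the filter only through 2i/L, so its call adds nothing to that count. Nqo1, Tkt and Ftl1 each missed the threshold under median centring and without the 2i-O48-TKO pair, and without the line as a block Ftl1 (adjusted p = 0.0788) and Tkt (adjusted p = 0.0508, both limma) did too. None of 7 tested NRF2 and xenobiotic receptor regulators was called in either comparison, beside 7.57% of all genes in TSa2i/L and 6.89% after the switch. For conjugate export and breakdown 0 of 9 were called in TSa2i/L, beside 7.57% of all genes. After the switch Gsto1, which that list also holds, was the only one of 8, called lower beside 4.66% of all genes.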

How the data were processed

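The authors amplified full-length cDNA from small numbers of haploid cells, mapped the reads to mm9 and deposited FPKM values per gene made with Cufflinks. The submitters' processing notes name TopHat2 2.0.11, Bowtie2 2.2.2 and Cufflinks 2.2.1; the gene annotation is not given in the sources used here. No counts were used, so FPKM values of rows with the same symbol were summed and log2(FPKM + 1) was fitted over all genes with limma 3.58.1 in R 4.3.3 (trend, Benjamini-Hochberg, threshold 0.05). Genes with at least 1 FPKM in 3 libraries (2 for passage) were tested, and intervals are 95% intervals of the fit. Groups came from the sample labels.

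TSa2i/L (5 libraries) was set against 2i-14 in 2i/L (3), the 3 switched cultures against their own lines with the line as a block, and 3 late against 2 early passages in TSa2i/L. The pairing comes from the line in the labels; the correlation of paired deviations was 0.172 for 2i-14, -0.141 for 2i-O48 and 0.358 for 2i-O48-TKO. As nothing says that libraries of a line came from separate thaws, p-values measure the spread between these libraries. The members, the gene lists and the alternatives were chosen with earlier results of these data known. All members are named; of other lists, called genes, the 5 genes most like Gstt2 and its 3 nearest genes on each side.

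Depth was estimated from the FPKM that 1 fragment is worth on long genes with a single transcript. Fits and the depth estimate were tested on simulated data. Sequences came from GENCODE vM1 (NCBIM37) and RefSeq (GRCm38.p6). Python 3.11.15 with pandas 2.3.3 and matplotlib 3.10.9 was used for tables and plots. The other 28 samples of the series (methylation and chromatin) were not analysed here. As alternatives, a pseudocount of 0.1, no filter on low FPKM, a minimum of 5 for the mean FPKM, other scaling, no trend, the highest row of a repeated symbol, no block, other control libraries, a fibroblast covariate and fits without each library or pair were tried.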

Additional observations from a re-analysis of the deposited data

Results flagged for a closer look

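Some members moved in opposite directions in 2 cell lines under the same contrast, and none of these differences was tested. Between early and late passages in TSa2i/L, TSa2i-C57 fell where both late libraries of TSa2i-14 rose for 5 members. For Gstt2 the difference in log2(FPKM + 1) was -0.36 in TSa2i-C57 (78.9 to 61.3 FPKM) and 1.78 and 0.94 in TSa2i-14. For Gstm5 it was -0.42 against 0.85 and 1.71, for Gstm1 -0.22 against 0.04 and 0.27, for Gstp1 -0.17 against 0.15 and 0.23, and for Gsta4 -0.13 against 0.15 and 0.09. Each TSa2i-14 difference uses the same p22 library, and TSa2i-C57 gives 1 pair.

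After the switch Gstm2 moved by -0.74 in wild-type 2i-14 and by 1.55 and 0.06 in 2i-O48 and 2i-O48-TKO. The wild type gives 1 pair. No member had a TSa2i/L library far from the other 4.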

How the results depend on the processing

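In the switch comparison the Gstt2 change was 2.89 to 3.37 over 14 alternatives and was called in all but that without a filter on low FPKM, where it was 3.12 (adjusted p = 0.143, limma) and 0 members were called; more genes were tested there. Leaving out 1 pair in turn gave 2 to 5 members called and Gstt2 changes of 2.89 to 3.37. Without the replicate block 3 members were called and Gstt2 was 3.12 (adjusted p = 0.00237, limma); no call of a member changed. With a replicate block on the cell line the passage comparison had 0 members called and a Gstt2 change of 0.62. In the TSa2i/L contrast, which chose Gstt2, its change was 3.17 to 3.68 over 19 alternatives, a description only. Over all genes the calls there went from 786 to between 229 and 1250, and in the switch comparison from 672 to between 0 and 1522. In the passage comparison 0 members were called throughout, at 0 to 8 genes.

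Values that changed sign were, with one exception, those of members not called. In the TSa2i/L contrast these were Gstp1 (-0.085 with median centring, and -0.11 to 0.17 leaving out 1 library), Gsto1 (-0.15 with both DMR-deleted lines added, -0.28 to 0.99 leaving out 1 library), Gstm1 (-0.10 without the fibroblast-rich libraries, -0.069 to 0.52 leaving out 1), Gstm5 (-0.54 to 0.23 leaving out 1) and Mgst1 (-0.082 to 1.53 leaving out 1). After the switch, Gstt1 was 0.057 with median centring, 0.053 with all 3 of the 2i-14 libraries, 0.07 with p18 and 0.061 with p39, and -0.24 to 0.068 leaving out 1 pair. Gstm1 was 0.13, 0.057, 0.045 and 0.36 under the same 4 settings and -0.49 to 0.35 leaving out 1 pair. Gstm5 was 0.11 with p18 and -1.05 to 0.003 leaving out 1 pair, Gstm2 -0.34 to 0.81 leaving out 1 pair, and Mgst1, the exception, -0.061 with p39. Between passages, Gsta4 was -0.12 and Gstp1 -0.055 with median centring, and Gstm1 0.076 with quantile normalization. Leaving out 1 library there gave Gstt2 -0.31 to 1.34, Gstm2 -0.006 to 0.36, Gstm5 -0.17 to 1.16, Gsta4 -0.10 to 0.11, Gstm1 -0.20 to 0.15 and Gstp1 -0.011 to 0.18. The causes were not tested. Of 509 values under an alternative, counts of members called included, 452 were scored as unchanged. For a log2 change this means the same direction and side of the threshold, and for a count a value near that of the main fit.

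Levels near the value of 3 fragments (Mgst1 in 2i/L, Gstt4) rest on few reads, and adding 1 before the logarithm shrinks their changes.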
